A study of Caenorhabditis elegans with 2 samples.

Results

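Peaks of the nuclear hormone receptor NHR-120 were examined at 9 chaperone genes of Caenorhabditis elegans, namely F44E5.4, F44E5.5, hsp-70, hsp-1, hsp-3, hsp-4, hsp-6, hsp-60 and hsp-90. The genes were chosen by name, with their peak signals already known, so their levels are given as a description and without a test. All 9 were found in the annotation. Each had at least 1 peak summit of the deposited joint ranked list within 1 kb of an annotated transcript start. So did 17792 of the 19985 annotated protein-coding genes, so having such a summit does not set the members apart. The members held 36 distinct peaks of the 115573 in that list, and F44E5.4 and F44E5.5 shared their only one.

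The peaks came from chromatin immunoprecipitation with sequencing (ChIP-seq), in which fragments of DNA bound by a protein are precipitated and sequenced. The design has 1 group of 2 biological replicates of strain OP415, whole young adult worms at 64 hours, grown from L1 larvae that were synchronised by bleaching and starvation. Strain OP415 carries the integrated transgene wgIs415, which makes NHR-120 with a TY1, EGFP and 3xFLAG tag, beside an unc-119(+) copy in an unc-119(tm4063) background, and an antibody against GFP was used for the precipitation. No heat treatment is named in the labels, and untagged or control worms were not analysed here, so signal that does not depend on the tagged receptor cannot be told apart from its binding. The worms were taken whole, so strong occupancy in few cells and weak occupancy in many cannot be told apart either.

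Nuclear hormone receptors are zinc-finger transcription factors, many of which bind hexamers known as half-sites. Heat shock proteins are chaperones that bind unfolded proteins and help them fold. HSP70 and HSP90 chaperones use ATP to hold and release client proteins, and the HSP60 chaperonin encloses them in a barrel. Cells keep constitutive forms in the cytosol, separate forms in the endoplasmic reticulum and in mitochondria, and further cytosolic HSP70 genes that are nearly silent until heat or other stress activates the heat shock factor, HSF-1 in worms, which binds arrays of inverted GAA words called heat shock elements.

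The lists give, for each peak, a signal value of the authors whose scale is not stated, and no read counts, so depth is unknown and all levels below are ranks or the authors' signals. A percentile of a peak is its place among all peaks of the same ranked list, and a gene percentile is the place of a gene's strongest peak among those of the 17792 genes. The median protein-coding gene had a strongest signal of 34.4 in the joint list, and the middle of the distribution ran from 26.5 to 43.3 (25th to 75th percentile). The thresholded list holds peaks with an irreproducible discovery rate (IDR) of at most 0.01, or 2 on the −log10 scale used below. It does not hold all such peaks. The joint ranked list has 707 peaks past that limit and a highest signal of 3680, and the thresholded list has 610 peaks and a highest signal of 284. The IDR is low where paired lists both rank a peak high and alike, and the sources do not state that the pairs behind the joint list are the replicates.

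The strongest member peak lay in the gap between F44E5.4 and F44E5.5, a pair of heat-inducible cytosolic HSP70 genes on chromosome II that are transcribed away from each other. The peak (chr II, 11759311 to 11759574, ce11) covers 263 bases of the 350-base gap, with its summit 132 bp upstream of F44E5.4 and 219 bp upstream of F44E5.5. Its sequence is shown because it carries the highest signal of the group and the densest set of heat shock elements. It is read from the WBcel235 genome on the plus strand, and capitals mark every GAANNTTC or TTCNNGAA word, the inverted pairs of which a heat shock element is built.
F44E5.4 and F44E5.5 peak: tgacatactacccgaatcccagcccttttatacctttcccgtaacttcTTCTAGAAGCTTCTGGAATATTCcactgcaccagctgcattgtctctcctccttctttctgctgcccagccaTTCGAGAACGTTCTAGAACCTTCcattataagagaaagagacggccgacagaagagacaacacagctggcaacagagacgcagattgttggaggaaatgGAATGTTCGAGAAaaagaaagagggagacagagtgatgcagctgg

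Its signal was 180 in the joint ranked list, 70.6 in the ranked list of replicate 1 and 106 in that of replicate 2. It ranked at 34 of 115573 joint peaks, at 66 of 60719 peaks in replicate 1 and at 31 of 58785 in replicate 2, so both replicates placed it near the top. By strongest peak both genes stood at rank 4 of the 17792 genes, a gene percentile of 99.98. In the thresholded list, which lacks some of the stronger ranked peaks, it was at rank 10 of 610. The −log10 IDR was 3.73, and the deposited −log10 q was 0.785. The summits of the single replicates were 9 bp and 26 bp from the joint summit, both towards F44E5.5, and the replicate peaks covered 95.1% and 87.5% of the joint peak.

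The peak held 10 of these inverted pairs, in 3 clusters. The central cluster (11759431 to 11759453, 4 overlapping pairs in 23 bases) had its centre 1 bp from the joint summit, on the side of F44E5.4. Another cluster of 4 pairs lay closer to F44E5.4, starting 48 bp upstream of it, and another of 2 pairs was centred 93 bp from the summit on the other side. The last cluster in the gap, 4 pairs starting 58 bp upstream of F44E5.5, lay past the end of the joint peak. The joint summit and that of replicate 1 (11759452) therefore lay within the central cluster, and that of replicate 2 (11759469) lay outside it, towards F44E5.5. Counted as triples, a GAANNTTC and a TTCNNGAA word that share 3 bases, on either strand and with overlaps allowed, the peak held 7.

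**Figure D1:**
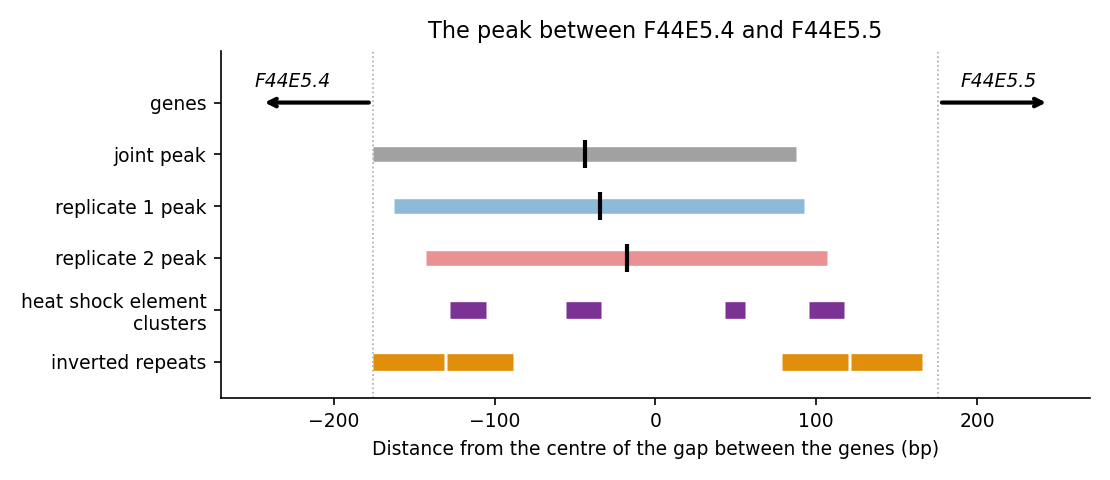
Map of the gap between F44E5.4 and F44E5.5, with distance from its centre in bp on the x axis. Bars are the peaks of the joint list and of each replicate with the summit as a black tick, purple blocks are the 4 clusters of heat shock element pairs, orange blocks are the stretches that recur inverted on the other side of the gap, and the joint summit falls on the second cluster.

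Such triples were uncommon, and ranked peaks that held one did not have a higher median signal. A triple was found in 1.79% of the 115561 ranked peaks of the same length and in 2.15% of the 605 of these that are in the thresholded list. Ranked peaks with a triple had a median signal of 21.4, against 22.9 for those without one. With this peak, 116 ranked peaks held at least 7 triples. The median signal of the others was 22.1, their highest was 127, and 4 of them were in the thresholded list. That is a larger share than the 0.528% of all ranked peaks that are in that list. It rests on 4 peaks, and the difference was not tested. The nuclear receptor half-site AGGTCA, searched on both strands, did not occur in the letters of this peak and was found in 7.12% of ranked peaks of that length. Of the 8 distinct strongest member peaks, 1 held it, that of hsp-1.

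The gap between the genes is an inverted repeat in part. Of the words of 30 bases in the peak, 29 (12.34%, 95% Wilson interval 8.73 to 17.2%, which covers counting only) occur elsewhere in the genome, and all 29 copies lie on the opposite strand in the same gap. They form 2 stretches of 45 and 42 bases at the F44E5.4 end of the peak, which recur inverted next to F44E5.5 (11759565 to 11759606 and 11759608 to 11759652). The stretch nearest the summit ends at 11759398, so the summit and the central cluster lie in sequence that is found once. Reads from the ends of the gap could be placed at either end, and the part of this in the place and signal of the peak was not tested.

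The coding sequences of F44E5.4 and F44E5.5 were 100% identical over 1935 bases, and 98.2% of the 30-base words of either gene occur more than once, nearly all in the other gene. No ranked summit of the joint list lay within either gene body (2205 and 2200 bp), whereas the other 7 members had from 3 to 14. The part of repeated sequence in this absence was not tested. In the whole thresholded list the median peak had no repeated words, and 53.1% of the 610 peaks had none.

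**Figure D2:**
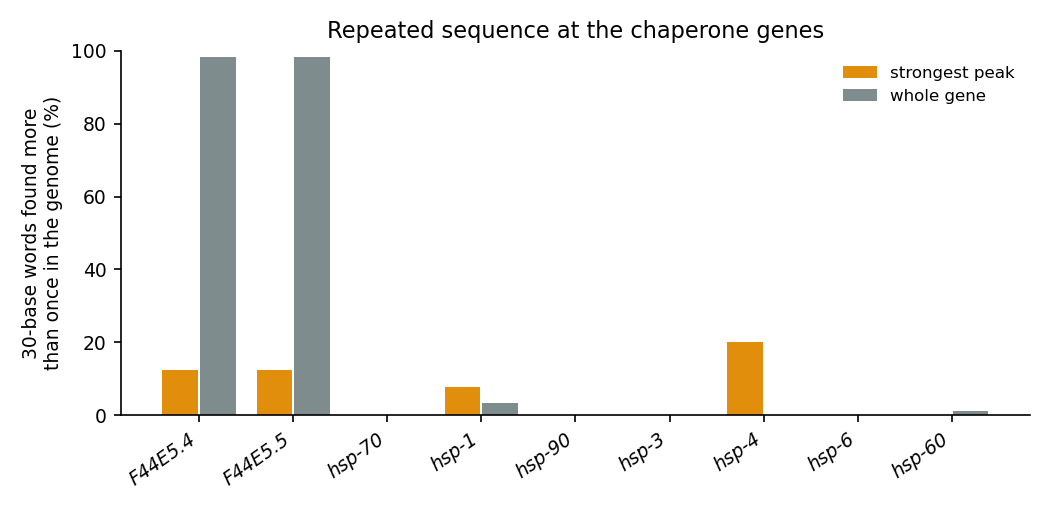
Share of 30-base words that occur more than once in the genome (y axis, percent), for the strongest peak and for the whole gene of each member (x axis). Only F44E5.4 and F44E5.5 have gene bodies near 100%, and the peak of hsp-4 has 20%.

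The third heat-inducible member, hsp-70 (C12C8.1, chr I, 9320325 to 9322519), had the lowest strongest signal of the 9 in the joint list and in replicate 1. It had 2 joint peaks within 1 kb, with signals of 22.1 at 124 bp past the start and 19.5 at 577 bp upstream, both below the median of ranked peaks. Its gene percentile was 13.9. Replicate 1 had 1 peak there with a signal of 8.95, and replicate 2 had no ranked peak within 1 kb. The gene lies within uggt-2, and the peak past the start is in introns of both genes while the upstream one is in an intron of uggt-2. Its coding sequence is 80.3% identical to that of F44E5.4, and 3 of its 2166 words of 30 bases are shared with the pair, so little of its own sequence is repeated. In the window from 250 bases before to 50 after its start, hsp-70 holds 3 heat shock element pairs and 1 triple. Its strongest joint peak holds 0 of either. The same windows of F44E5.4 and F44E5.5 hold 10 pairs and 7 triples each, as does their peak. Heat-inducible members with such words in this window stood at both ends of the range of signals, but with unlike counts. A link between the words and the signal was not tested.

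**Figure D3:**
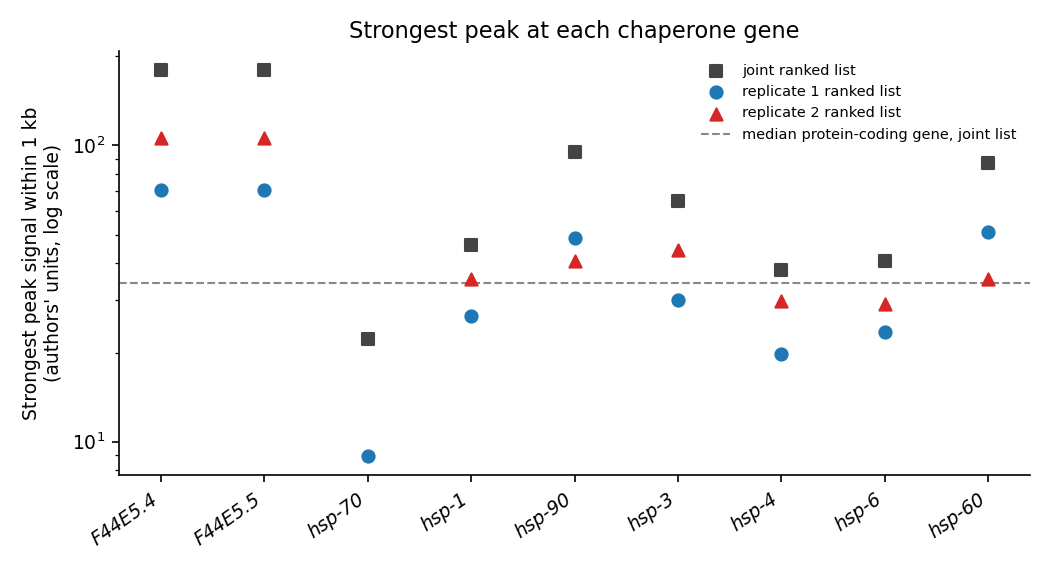
Strongest peak signal within 1 kb of each gene (y axis, authors' units on a log scale) in the joint ranked list and in the ranked list of each replicate. The pair F44E5.4 and F44E5.5 has the highest value in all 3 lists, and hsp-70 has the lowest in 2 lists and no value in replicate 2.

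Of the constitutive cytosolic members, hsp-90 had a thresholded peak and hsp-1 did not. The gene hsp-90 (also known as daf-21) encodes the cytosolic HSP90, and its strongest peak (chr V, 14685633 to 14685896) had a signal of 94.8 in the joint list, 48.9 in replicate 1 and 40.6 in replicate 2. It ranked at 184 of the joint list, at 217 in replicate 1 and at 704 in replicate 2, with a −log10 IDR of 2.73 and a −log10 q of 1.05. The summit lay 395 bp upstream of the shorter transcript, in the intron of a longer one that starts 847 bp before the summit, and 280 bp upstream of C47E8.4, which runs the other way. A second peak of hsp-90, 117 bp past the start of the long transcript, had a signal of 56.2, and the other 3 were between 9.74 and 30.2.
hsp-90 peak: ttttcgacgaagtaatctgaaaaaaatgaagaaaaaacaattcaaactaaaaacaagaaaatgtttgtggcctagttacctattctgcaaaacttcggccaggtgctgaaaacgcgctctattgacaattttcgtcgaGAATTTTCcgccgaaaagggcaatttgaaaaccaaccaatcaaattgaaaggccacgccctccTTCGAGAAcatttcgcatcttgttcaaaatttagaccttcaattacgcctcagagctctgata

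With the same capitals, the hsp-90 peak holds 2 single pairs, centred 9.5 and 72.5 bp past the summit on the plus strand, and no triple. At the start of the long transcript, the window of 250 bases before to 50 after holds 4 pairs and 2 triples, outside the strongest peak. No 30-base word of the gene or of the peak recurs in the genome, so its position is not in doubt from repeats.

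The gene hsp-1, which encodes the constitutive cytosolic HSP70, had 4 joint peaks within 1 kb, with signals from 5.89 to 46.0. The strongest, 295 bp past the start in an exon, stood at a gene percentile of 80.8. Of its 30-base words 7.66% recur, with the copies in hsp-2, so the origin of reads there is uncertain in part. By strongest peak, replicate 1 gave 26.5 and replicate 2 gave 35.4, at different positions, 379 bp upstream and 356 bp past the start. A stronger peak of hsp-1 lies outside the window (chr IV, 17280874 to 17281137), 2047 bp into the gene in an exon and within 1 kb of the start of the snoRNA gene F26D10.24. Its signal was 76.6, at rank 455, with a −log10 IDR of 1.97, just short of the limit, and it was in neither replicate's own thresholded list.

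Of the mitochondrial members, hsp-60 had a thresholded peak and hsp-6 did not. The hsp-60 gene encodes the mitochondrial chaperonin, and its peak (chr III, 1618972 to 1619235) had signals of 87.3 in the joint list, 51.0 in replicate 1 and 35.5 in replicate 2. It ranked at 250 in the joint list, 179 in replicate 1 and 1609 in replicate 2, so replicate 1 placed it higher. The −log10 IDR was 2.68 and the −log10 q was 0.906. The summit was 638 bp upstream of hsp-60 and 175 bp upstream of Y22D7AL.10, on the other strand, which encodes the HSP10 partner of the chaperonin, so the peak lies nearer to the start of the partner. The other 8 peaks of hsp-60 had signals between 9.96 and 40.5.
hsp-60 peak: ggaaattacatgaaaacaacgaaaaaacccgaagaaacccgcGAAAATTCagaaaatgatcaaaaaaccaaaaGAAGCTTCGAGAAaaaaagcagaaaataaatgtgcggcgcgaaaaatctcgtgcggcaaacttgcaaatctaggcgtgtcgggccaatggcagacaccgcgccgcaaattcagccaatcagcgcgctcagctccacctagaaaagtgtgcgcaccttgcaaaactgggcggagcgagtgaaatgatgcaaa

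The hsp-60 peak holds 3 pairs, of which 2 overlap in 1 triple centred 53 bp before the summit on the plus strand, and no repeated 30-base word. The gene hsp-6, which encodes the mitochondrial HSP70, had 2 joint peaks, both in exons past the start, with signals of 40.8 at 635 bp and 34.9 at 180 bp. Its strongest signals were 23.5 in replicate 1 and 29.2 in replicate 2, and its gene percentile was 69.2. In the joint list hsp-60 thus stood far above hsp-6, 87.3 against 40.8, and in replicate 2 they stood closer, 35.5 against 29.2.

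The endoplasmic reticulum members hsp-3 and hsp-4 encode forms of BiP, the HSP70 of that compartment, and hsp-4 is the one commonly used as a reporter of the unfolded protein response. Neither had a thresholded peak. The strongest peak of hsp-3 (chr X, 6092040 to 6092303) came close, with a −log10 IDR of 1.93, a signal of 64.9 and rank 1074. Its summit was 48 bp upstream of the longest transcript. By the strongest peak within 1 kb, replicate 1 gave 30.2, at 286 bp past an internal start, and replicate 2 gave 44.2, at 46 bp upstream. In replicate 1 the peak at the upstream start had a signal of 28.0, with its summit 14 bp past that start.
hsp-3 peak: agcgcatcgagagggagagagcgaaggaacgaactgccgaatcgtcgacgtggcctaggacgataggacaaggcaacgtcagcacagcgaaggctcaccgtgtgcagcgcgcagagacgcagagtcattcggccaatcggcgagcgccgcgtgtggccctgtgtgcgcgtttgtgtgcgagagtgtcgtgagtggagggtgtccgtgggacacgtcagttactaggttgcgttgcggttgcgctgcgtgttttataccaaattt

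The hsp-3 peak has no heat shock element pair, so no letters are in capitals, and it is shown as the member peak within 1 kb of a start that came nearest to the limit without passing it. It holds 1 match to TGACGTG, the core of unfolded protein response elements, on the minus strand 81 bp from the summit, a word found in 2.45% of ranked peaks of that length. Its GC content of 59.5% was above the 90th percentile of those peaks (47.0%), as were those of the strongest hsp-4 peak (50.4%) and of the F44E5.4 and F44E5.5 peak (47.3%). The strongest peak of hsp-4 (chr II, 7353085 to 7353348), with its summit at -572 bp from the nearest start, had a signal of 38.1, and another at -41 bp had 37.9. Its strongest signals in the replicates were 19.7 and 29.8, and the gene percentile was 61.8. Of the words in the strongest hsp-4 peak, 20% recur in many places in the genome, so the origin of reads there is uncertain.

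**Figure D4:**
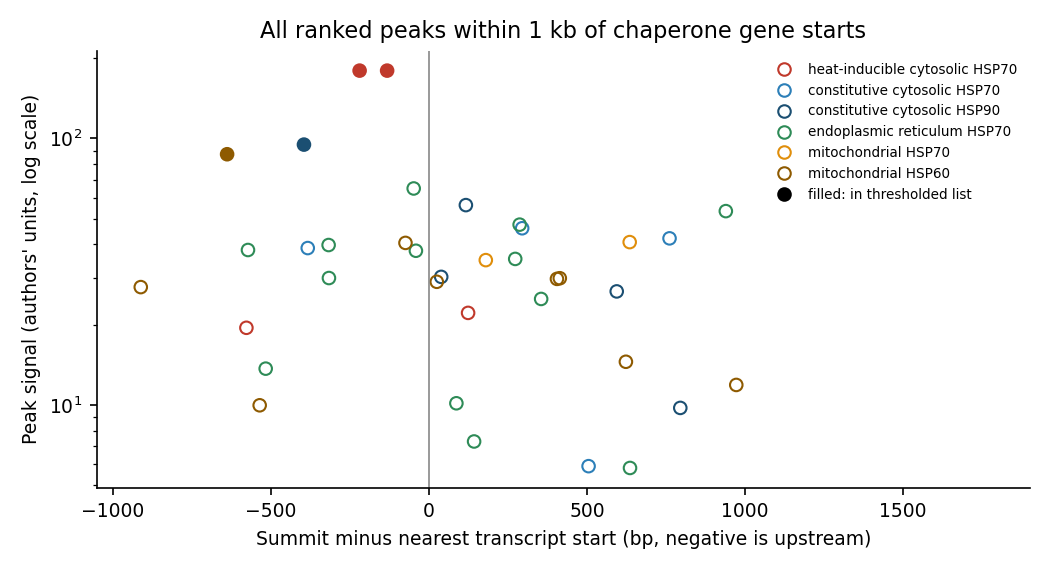
Signal of each joint ranked peak (y axis, authors' units on a log scale) against the distance of its summit from the nearest transcript start of the member gene (x axis, bp, negative upstream), with colours for the class of chaperone and filled points for thresholded peaks. The 3 thresholded peaks, of which 1 is drawn for both F44E5.4 and F44E5.5, are all upstream, and no other member peak exceeds 64.9.

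Of the 9 members, 4 had a thresholded summit within 1 kb, through 3 peaks, against 1.93% of the 17792 protein-coding genes. Because the genes were chosen with these signals in view, nothing is read from that contrast. The authors' conservative list held the same 3 peaks, where the share of all genes was 1.74%. In the lists thresholded on single replicates, F44E5.4 and F44E5.5 were the only members in that of replicate 1 (0.253% of all genes) and in that of replicate 2 (0.264%). Just 0.146% of the genes were in both. The peaks of hsp-90 and hsp-60 were in neither replicate's own list. Within 1 kb of a start, the first member below the limit was hsp-3, followed by hsp-1, whose −log10 IDR was 1.68. In the second joint ranked list, described below, the same hsp-1 peak had a −log10 IDR of only 0.33. That of the hsp-3 peak was 1.93 in both lists.

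All 3 thresholded member peaks lay between the starts of protein-coding genes that point away from each other, each start within 1 kb of the summit. For hsp-90 this holds for the start of the shorter transcript only. Of all 19 ranked member peaks upstream of a protein-coding start within 1 kb, 3 (15.8%) were placed so. Of thresholded summits that lie upstream of a protein-coding start within 1 kb, 32 of 167 (19.2%) were placed so, and of all such ranked summits 7.31%. No test was made of this difference, since 3 peaks chosen with their signals known cannot support one. Of the 36 member peaks, 14 had their summit before the nearest start and 22 at or past it, with 20 in exons, 10 in introns and 6 between genes. Their median signal was 30.1, at the percentile 69.7, and 9 of them were above the 90th percentile of the list while 11 were below the 50th.

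Heat-inducible, constitutive and organelle members did not separate by signal. By strongest joint peak the order was F44E5.4 and F44E5.5 (180), hsp-90 (94.8), hsp-60 (87.3), hsp-3 (64.9), hsp-1 (46.0), hsp-6 (40.8), hsp-4 (38.1) and hsp-70 (22.1). Replicate 1 kept the pair first and hsp-70 last, but had hsp-60 (51.0) above hsp-90 (48.9). In replicate 2 hsp-3 (44.2) came second, above hsp-90 (40.6), hsp-60 (35.5) and hsp-1 (35.4). The genes hsp-90, hsp-60 and hsp-3 thus changed places between replicates, as did hsp-6 and hsp-4 (23.5 and 19.7 in replicate 1, 29.2 and 29.8 in replicate 2). The pair was first in both, and hsp-1 came after hsp-90, hsp-60 and hsp-3 in both. The median gene percentile was 99.98 for the 3 heat-inducible members and 88.9 for the other 6. That order turned when the shared peak was counted once, with a difference of -31.9 percentile points.

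**Figure D5:**
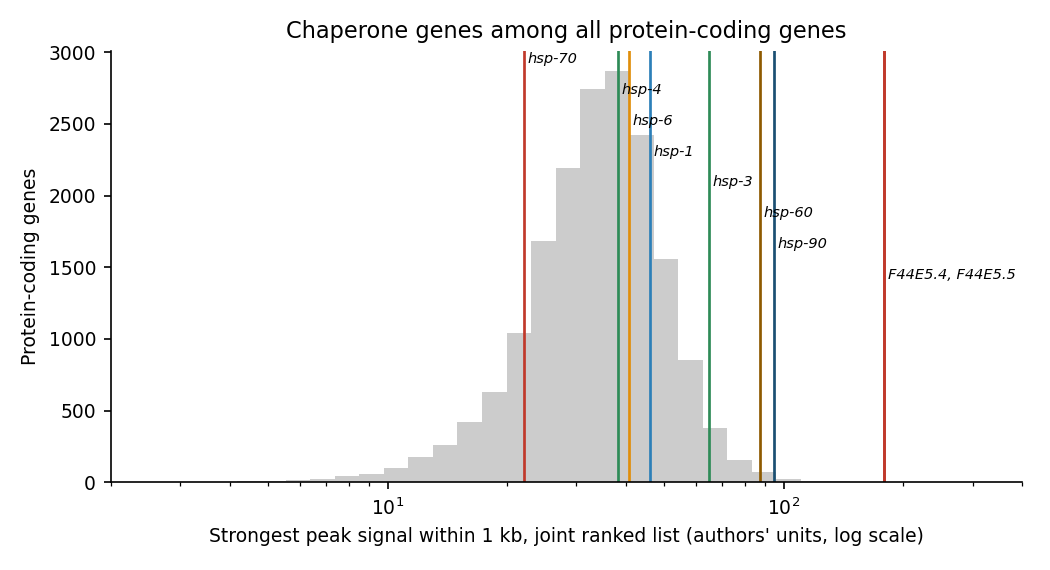
Number of protein-coding genes (y axis) by the strongest joint peak signal within 1 kb (x axis, authors' units on a log scale), with a line for each member. The pair F44E5.4 and F44E5.5 lies far beyond the bulk at 180, hsp-90 and hsp-60 lie in the upper tail, and hsp-70 lies left of the centre at 22.1.

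The second joint ranked list gives 2 paired signals for each peak, whose columns carry no sample names. For the strongest peak of F44E5.4 and F44E5.5 the first was 70.6 and the second 106, a log2 ratio of second to first of 0.58. The second was also higher at the strongest peaks of hsp-1 (2.04), hsp-3 (0.66), hsp-4 (1.00) and hsp-6 (0.83). The first was higher at hsp-90 (-0.27) and hsp-60 (-0.52), so these 2 thresholded peaks went the other way from the pair. At hsp-70 the direction depended on the peak. It was -0.43 at 124 bp past the start and -1.32 upstream, and 0.71 at a peak 891 bp past the start that only this list holds, where its signal was 26.2. Over all 114571 peaks of that list the median log2 ratio was 0.04. The largest difference was at hsp-1, whose paired values were 8.63 and 35.4. Replicate 1 also has a peak with a signal of 24.7 (chr IV, 17278932 to 17279187) that overlaps this joint peak. The size of the difference thus depends on which peak was paired. For the strongest peaks of the pair, hsp-90, hsp-60, hsp-1, hsp-3 and hsp-6, the first value equals one in the ranked list of replicate 1. The second equals one in that of replicate 2. At hsp-4 this holds for the second value only, and at hsp-70 for neither. The values that recur are not a further reading, and the columns were still assigned to no replicate. With 1 value per column these ratios have no error of their own.

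The protein-coding genes most like the F44E5.4 and F44E5.5 peak, by the distance between gene percentiles in the lists of the 2 replicates, were F56G4.6 and wbp-4, which share a peak, and rpl-3. F56G4.6 and wbp-4 had signals of 65.0 in replicate 1 and 91.0 in replicate 2. The ribosomal protein gene rpl-3 had 76.5 and 117. The distances were 0.034 and 0.041 percentile points, over 2 replicates only.

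Among other genes of the chaperone and stress-response systems, 59 genes were matched, of which 55 had a ranked summit within 1 kb and 3 a thresholded one. Of all 19985 protein-coding genes, 17792 had a ranked summit, and 1.93% of these had a thresholded one. The median strongest signal of the listed genes was 37.3, close to the 34.4 of all genes, and their range was 15.9 to 84.9. The highest was cct-8, a subunit of the cytosolic chaperonin, with a signal of 84.9 at -450 bp from its start and signals of 31.0 and 51.0 in replicates 1 and 2. Next came crt-1, which encodes calreticulin, a calcium-binding chaperone of the endoplasmic reticulum (69.5, 64 bp past the start, in its exon), bag-1, an HSP70 co-chaperone (68.9, 65 bp upstream), and pdi-2, a protein disulphide isomerase (58.8). The third gene with a thresholded peak was pdi-1, through a weak peak with a signal of 11.5, 792 bp past its start. None of the 14 small heat shock protein genes had a thresholded summit, none of the 18 HSP110 and co-chaperone genes and none of the 11 regulators. At a share of 1.93%, sets of these sizes hold few or none, so nothing is read from these absences.

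Heat shock element triples were also present at genes without a thresholded peak. A triple in the window around the gene start was found in 5 of the 9 members (F44E5.4, F44E5.5, hsp-70, hsp-1 and hsp-90). Among the 59 listed genes 11 had one. These were 6 of the 14 small heat shock protein genes, 4 of the 18 HSP110 and co-chaperone genes and 1 of the 11 regulators. None of the 8 chaperonin and none of the 8 organelle genes had one. The share of all 19984 promoters was 1.97%. Windows of divergent genes can overlap, as those of F44E5.4 and F44E5.5 do, so 1 triple can count for both. The small heat shock genes hsp-16.2 and hsp-16.41, named here after their values were seen, are heat-inducible and divergent like F44E5.4 and F44E5.5, and each has 2 triples in that window. Their shared strongest peak had a joint signal of 30.7, below the median gene of 34.4. Replicate 1 had no ranked peak within 1 kb of either, and replicate 2 gave 21.6, beside a median gene of 21.1 in that list. Other listed genes with a triple stood on both sides of the median gene of the joint list. Above it were bag-1 (68.9), dnj-12 (47.6), hsp-110 (41.8) and both hsp-16.48 genes (37.3), which share that peak. Below it were ahsa-1 (30.6), an hsp-16.1 gene (30.3) and pek-1 (18.2), and the other hsp-16.1 gene had no ranked peak. By distance to the nearest start, only the bag-1 summit lay inside the searched window, and that of hsp-110 lay just upstream of it. The remaining summits lay past the window. They were 469 bp past the start for dnj-12, 479 bp for pek-1 and 887 bp for ahsa-1. For the hsp-16.48 genes they were 697 and 938 bp past it, and for hsp-16.1 957 bp. These signals are thus mostly not those of the windows with the triple. A match is a description of the letters and does not show that a factor is bound there.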

How the data were processed

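Peak lists of NHR-120::GFP ChIP-seq in 2 replicates of young adult worms were used. Per the deposited file descriptions, the assembly is ce11 and the joint lists derive from both alignments. Neither aligner nor peak caller is named in the sources used here. The deposited lists hold the authors' signal value on an unstated scale, a score of at most 1000, and −log10 q values, with the −log10 of the global IDR in the deposited ranked lists. Scores were not used in any comparison. The lists hold no read counts, so depth and counting precision of signals are unknown.

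Gene models came from Ensembl release 115 and sequence from the RefSeq WBcel235 genome, the same assembly as ce11, with all peaks inside the chromosome lengths. A summit was given to every gene with a transcript start within 1 kb. Members and gene lists were chosen with earlier results of these data known, and no test was run, because the design has 1 group and the members were chosen on these signals. Named genes are the members, genes whose starts share a member peak, listed chaperones with a thresholded summit or among the 4 highest signals, and the 3 genes nearest to the divergent peak. Listed genes with a heat shock element triple were named as well, after their values were seen. Of 59 listed symbols, 57 matched, and hsp-16.1 and hsp-16.48 each matched more than 1 gene. Words of 30 bases were searched on both strands, motifs from 250 bases before to 50 after the annotated 5′ end of each gene, and coding sequences were aligned globally (Biopython 1.88, Python 3.11.15). The counting steps were tested on simulated data.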

Additional observations from a re-analysis of the deposited data

How the results depend on the processing

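Of 34 alternative values, 23 stayed within the spread between replicates or within 1.5 times the count, 10 moved and 1 reversed. That spread was taken from the 2 single-replicate values, which are among the 34, so their own labels are partly fixed in advance. All 9 members kept a ranked summit in the joint lists with windows of 500 bp and 2 kb, and 8 did in replicate 2 alone. The number with a thresholded summit was 4 in the conservative list and with a 2 kb window, 3 with 500 bp, and 2 in each single-replicate list. The median gene percentile of the members, 97.0, was 87.5 with a window of 500 bp, 84.1 with the mean over all peaks of a gene, and from 90.1 to 96.3 in the lists of single replicates. The percentile of the F44E5.4 and F44E5.5 peak ranged from 99.89 to 99.95 there. The difference between heat-inducible and other members, 11.1 percentile points, was 18.3 with a 2 kb window and -31.9 with the shared peak counted once, since hsp-70 then weighs as much as the pair. It ranged from 5.29 to 14.8 in the single replicates, without hsp-70 in replicate 2, where it has no peak. Repeated words in that peak were 20% with words of 20 bases and 0 with words of 50 bases, as no repeated stretch is that long. The median log2 ratio of the paired signals, 0.66 with the peak of hsp-70 at 891 bp, was 0.18 with the mean over all peaks of a gene.

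No paired analysis was possible because the series has 1 group. Depth is unknown, the signal scale is not stated, and 2 replicates give no error for a single peak.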
